A study of Mus musculus with 4 samples.

Results

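In 1038 pairs of H2A.Z peaks shared by both genotypes, the peak of Anp32e knockout fibroblasts reached at least 400 bp beyond the wild-type peak on one side, while the opposite edge lay within 50 bp of its wild-type position. These pairs are described here by their length, side, chromosome and neighbours. H2A.Z is a histone that takes the place of ordinary H2A in some nucleosomes, most often in those beside the nucleosome-free gap of promoters and enhancers. It is put in by SWR1-type remodelling complexes, and Anp32e is a chaperone that binds H2A.Z and is reported to take it off chromatin. An H2A.Z peak covers the run of nucleosomes at 1 site, so its edges mark where the detected signal ends on the left and on the right.

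The data are 2 peak lists from chromatin immunoprecipitation and sequencing (ChIP-seq) with an H2A.Z antibody in mouse embryonic fibroblasts, which grow from the trunk of an embryo after the head and inner organs are removed. The 2 genotypes were Anp32e +/+ (wild type) and Anp32e -/- (knockout), both from crosses of heterozygous mice, both on a C57BL/6 background, taken from single embryos at embryonic day 10.5 and used at passages 5 to 10. Each genotype has 1 H2A.Z library and 1 input library, and the inputs were not analysed here. The comparison asks how loss of the chaperone goes with the reach of H2A.Z around sites that hold it in both genotypes. Neither genotype was replicated, so no test was made and every difference describes these 2 libraries. Intervals are exact 95% intervals that cover counting error over peaks only. The lists give positions alone, so sequencing depth, peak height, the loss of Anp32e and the fibroblast identity of the cells could not be checked from them. Peak callers tend to return wider peaks from deeper or better enriched libraries, and genotype and library cannot be told apart.

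The wild-type list held 37667 peaks and the knockout list 41912. Peaks were paired when they overlapped each other and no other peak of the opposite list, which gave 28979 matched pairs. Of these, 27746 had a wild-type peak narrower than 3500 bp and were eligible. The 1038 pairs extended on one side in the knockout were 3.74% of the eligible pairs (95% interval 3.52 to 3.97%). They were 3.58% of all matched pairs. The members were chosen by the start and end positions of both peaks, so these shares are themselves the background and nothing is read from them. In the opposite direction, with the limit still on the wild-type width, 238 pairs (0.858%) were extended on one side in the wild type. The knockout form was thus 4.36 times as frequent (95% interval 3.79 to 5.04). That limit falls on the longer peak of the wild-type form but on the shorter peak of the knockout form. With no width limit the ratio was 3.72 (95% interval 3.26 to 4.24). With each edge shift taken less the median of its chromosome, an alternative added after seeing the data, the ratio was 2.81 (95% interval 2.46 to 3.20). A further 535 pairs (1.93%) reached out by 400 bp or more on both sides in the knockout, and 1750 pairs (6.31%) had both edges held within 50 bp.

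Long extensions most often came with a smaller outward shift of the opposite edge, which was also the most frequent state of edges in general. At least 1 edge moved out by 400 bp or more in 5511 eligible pairs, or 19.9%. The opposite edge was held in 1038 of them, or 18.8% (95% interval 17.8 to 19.9%). In 3262 pairs (59.2%) the opposite edge also moved out, by more than 50 and less than 400 bp. In 535 pairs (9.71%) it moved out by 400 bp or more, and in 676 pairs (12.3%) it moved in by more than 50 bp. Over all eligible pairs, 51.2% of higher and 51.3% of lower edges moved out by more than 50 and less than 400 bp. Opposite a long extension these shares were little higher, at 53.7% and 54.2%. A typical edge in these lists was not at 0, because over the eligible pairs the lower edge lay a median of 94 bp and the higher edge a median of 97 bp farther out in the knockout. On most chromosomes a held edge therefore moved less than the typical edge, but on chromosomes 4, 12, 6 and 11 the median edge shift was -3, 28, 42 and 43.5 bp and so lay within the 50 bp allowed to a held edge.

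**Figure D1:**
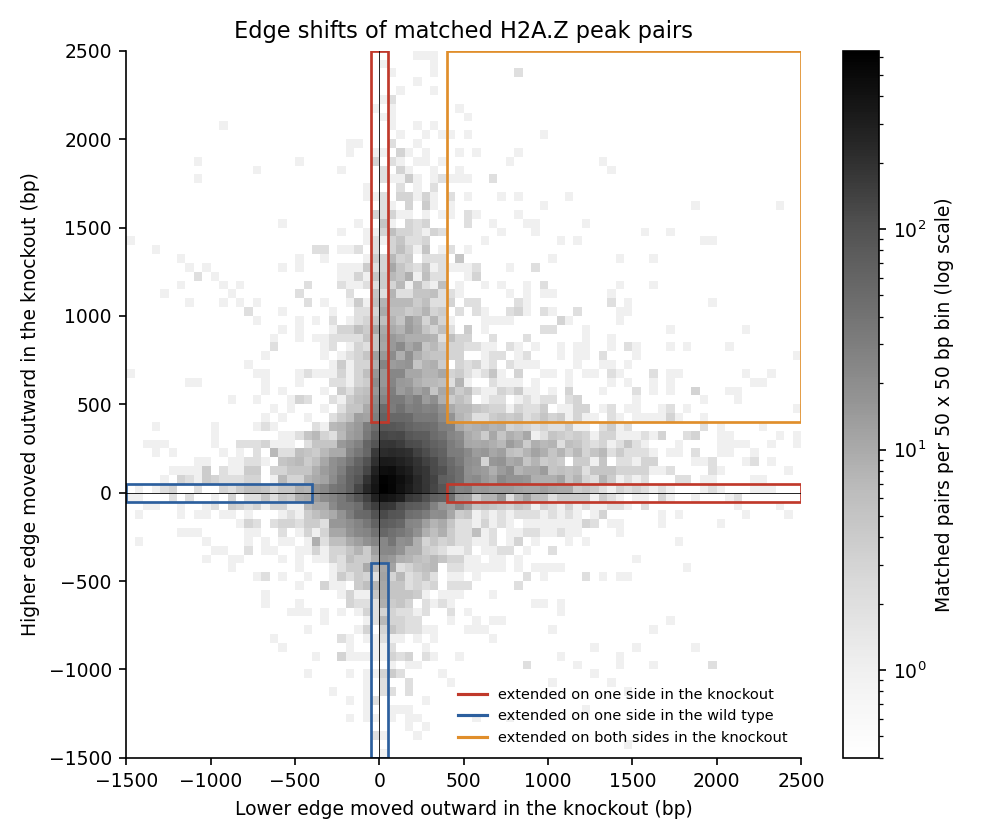
The plot of edge shifts shows all eligible pairs in bins of 50 by 50 bp, with the outward shift of the lower edge on the x axis, that of the higher edge on the y axis and the number of pairs as grey on a log scale; 71 pairs lie outside the plotted range. The red boxes mark the rule for the 1038 pairs extended on one side in the knockout and end at 2500 bp, beyond which some members lie. In 3262 of the 5511 pairs with a long extension the opposite edge moved out by more than 50 and less than 400 bp. Within the plotted range these lie next to the red boxes.

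Held edges were fewer opposite a long extension than among all edges. The higher edge was held in 23.2% of all eligible pairs (95% interval 22.7 to 23.7%) and in 16.4% of the 2942 pairs whose lower edge had moved out by 400 bp or more (95% interval 15.1 to 17.8%). For the lower edge the shares were 23.6% of all pairs and 17.9% of the 3104 pairs with a long extension of the higher edge. Seen from the other side, the lower edge reached out by 400 bp or more in 7.50% of pairs with a held higher edge, in 11.1% of those where the higher edge had moved out by 50 to 400 bp, and in 17.2% of those where it had moved out by 400 bp or more. Where the higher edge had moved in by more than 50 bp the share was 8.63% (95% interval 7.78 to 9.54%), no lower than with a held edge (95% interval 6.87 to 8.17%). These shares describe the same positions that chose the members. Over the 27746 pairs, which share libraries and chromosomes, Pearson's r of the shifts was 0.0994 and Spearman's rho was 0.181.

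The extension added a median of 654 bp to a wild-type peak of median width 1587 bp. Its quartiles were 476 and 930 bp, and 10% of members exceeded 1264 bp. Knockout peaks of these pairs had a median width of 2408 bp. Wild-type peaks ranged from 723 to 3450 bp and knockout peaks from 1132 to 6946 bp. In 388 members (37.4%) the extension was at least 50% of the width of the wild-type peak, and in 85 members (8.19%) it was at least as long as that peak. For scale, the narrowest peak of the whole knockout list was 511 bp wide, and 705 extensions (67.9%) were at least that long. Only 77 (7.42%) reached 1426 bp, the median width of a peak found in the knockout alone. The length of the extension did not follow the width of the wild-type peak, since over the 1038 members Pearson's r was -0.0321 and Spearman's rho was -0.0373.

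One-sided extensions were scarcer in the wild-type direction in each range of length examined. Between 400 and 500 bp, 309 pairs were extended in the knockout against 71 in the opposite direction, a ratio of 4.35 (95% interval 3.35 to 5.72). At 1000 bp or more there were 215 and 33, a ratio of 6.52 (95% interval 4.50 to 9.71). At 1500 bp or more the numbers were 65 and 3, a ratio of 21.7 with a wide interval of 7.09 to 107.8. All 22 extensions of 2000 bp or more belonged to the knockout. The median length was 592 bp for the wild-type extensions (95% interval 565 to 626 bp), against 626 to 684 bp for the interval of the knockout median. A wild-type extension is part of a wild-type peak, which had to be narrower than 3500 bp, while knockout peaks had no such limit. The rule thus holds down long wild-type extensions. The rise of the ratio with length and the difference of medians cannot be told apart from that limit.

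**Figure D2:**
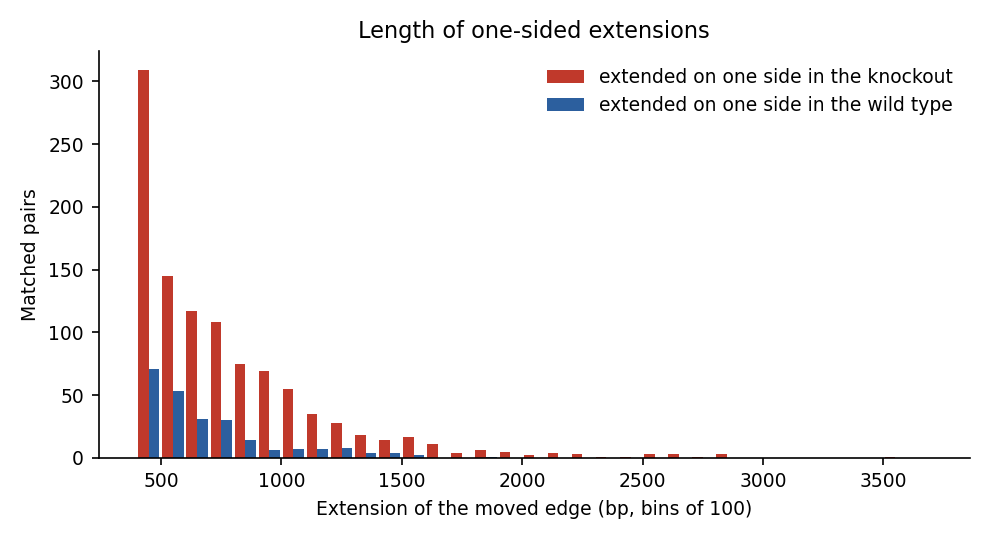
The plot of extension lengths counts matched pairs in bins of 100 bp, in red for the 1038 pairs extended on one side in the knockout and in blue for the 238 extended on one side in the wild type. Both fall off from 400 bp, and only red bars remain from 2000 bp on. The limit of 3500 bp on the wild-type width bounds the blue extensions and not the red ones.

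The threshold cut through a continuous range. The 3 shortest extensions measured exactly 400 bp, on chromosome 2 (wild-type peak 91887574 to 91889331), chromosome 5 (33999523 to 34002268) and chromosome 11 (105795239 to 105796819). The 3 pairs that missed by least measured 399 bp, on chromosome 4 (128392467 to 128394166), chromosome 5 (97393277 to 97394408) and chromosome 15 (75843385 to 75846684). An extension of 400 to 449 bp was found in 192 members, and 290 other pairs had one edge held and the other out by 350 to 399 bp. At the limit for the held edge, 182 members had it more than 40 bp away, and 162 pairs missed with 51 to 60 bp. Another 47 pairs would have been members but for a wild-type width of 3500 bp or more.

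Extensions were slightly more often on the side of higher coordinates. That side held 555 members and the lower side 483, or 46.5% (95% interval 43.5 to 49.6%). Over all eligible pairs, members included, the higher edge moved out by 400 bp or more in 3104 (11.2%) and the lower edge in 2942 (10.6%). Outside the members, the opposite edge moved out by more than 50 and less than 400 bp in 1683 and 1579 of these. It moved in by more than 50 bp in 331 and 345. Whether the lean is particular to the members was not tested. Among members, the higher side led on 13 of the 20 chromosomes and the lower side on 7. On each of the 20 chromosomes the interval of the members' lower-side share included 50%. The pooled interval also included 50% with a minimum of 300 or 600 bp and with a held edge within 25 or 100 bp, where the share was 47.2 to 48.5%. It lay below 50% with no width limit (46.5%), with 50% overlap of both peaks (45.6%), on autosomes alone (46.7%), without chromosomes 1, 4, 12, 13 and 16 (46.2%) and after merging within 500 bp (46.03%). Extensions in the wild type were split evenly, 118 and 120. Extensions to the lower side had a median of 691 bp (95% interval 639 to 730 bp) and those to the higher side 628 bp (95% interval 599 to 668 bp), and the intervals overlapped. Coordinates on the reference strand carry no direction of transcription, and gene starts on mm9 were not used here, so the sides were not read as upstream or downstream of a gene.

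The longest extension of all lay on chromosome 10. There the wild-type peak covered 61801201 to 61804608 (3408 bp) and the knockout peak 61797632 to 61804577 (6946 bp). The higher edges were 31 bp apart and the lower edge lay 3569 bp farther out in the knockout. Next came chromosome 13, where a wild-type peak of 1979 bp at 109127807 to 109129785 stood against a knockout peak of 4800 bp at 109124973 to 109129772, an extension of 2834 bp with the other edge 13 bp away. On chromosome 8 the wild-type peak at 3599985 to 3601233 was 1249 bp and the knockout peak at 3597310 to 3601248 was 3939 bp, an extension of 2675 bp. In each of these the knockout peak was 2.04, 2.42 or 3.15 times as wide as its partner, and the added sequence held no other wild-type peak, as the pairing requires. The fourth and the fifth on the lower side were on chromosome 16 (31455145 to 31456387 in the wild type, 31452502 to 31456385 in the knockout, 2643 bp) and chromosome 1 (135830474 to 135832123 and 135827880 to 135832155, 2594 bp). At the last of these the extended edge came within 379 bp of the next knockout peak.

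On the higher side the longest extension was 2883 bp, on chromosome 2. Its wild-type peak spanned 27425937 to 27426981 (1045 bp) and its knockout peak 27425917 to 27429864 (3948 bp), so the knockout peak was 3.78 times as wide while the lower edges were 20 bp apart. A wide site on chromosome 10 followed with 2881 bp, its wild-type peak at 76423386 to 76426696 (3311 bp) and its knockout peak at 76423391 to 76429577 (6187 bp). The third lay on chromosome 9, where a peak of 1071 bp at 41183932 to 41185002 faced one of 3853 bp at 41183885 to 41187737. Chromosome 5 gave the fourth (134941695 to 134943147 and 134941712 to 134945773, 2626 bp) and chromosome 1 the fifth (88275707 to 88276731 and 88275684 to 88279173, 2442 bp). At these 10 sites the next wild-type peak on the extended side was 5779 to 84275 bp from the wild-type edge. The nearest was at the chromosome 8 site, where the next knockout peak began 3004 bp beyond the extended edge.

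**Figure D3:**
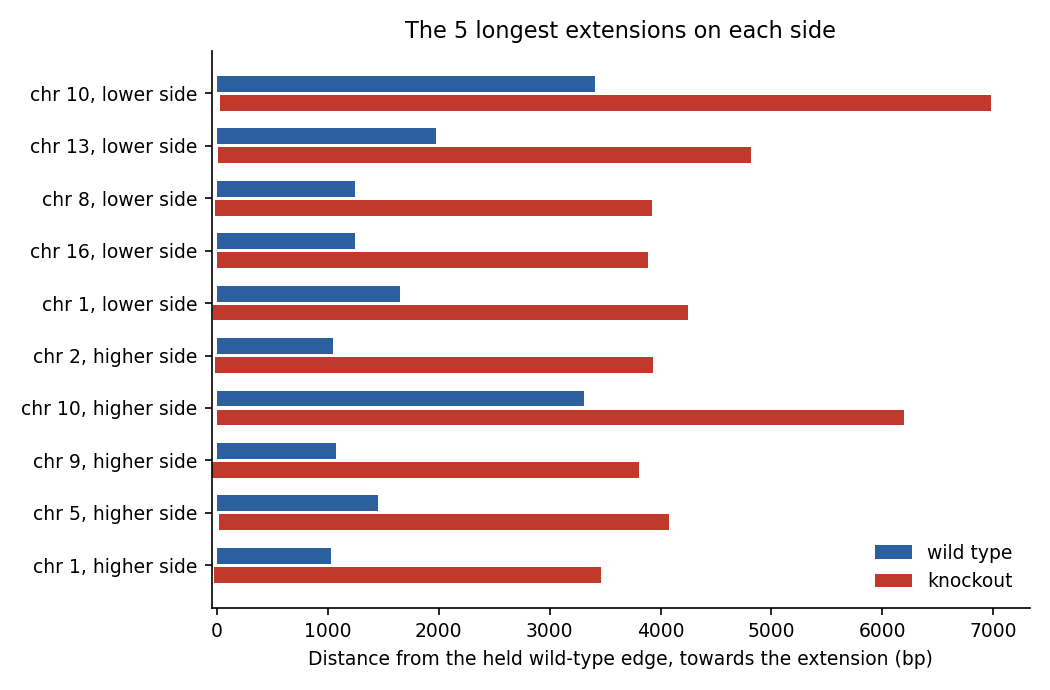
The map of the 5 longest extensions on each side draws the wild-type peak in blue and the knockout peak in red, in bp from the held wild-type edge towards the extended side. Each pair starts within 50 bp of the same point, and the red bars run 2442 to 3569 bp past the blue ones.

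The narrowest wild-type peaks among the members were 723 to 739 bp wide. On chromosome 6 a peak of 723 bp at 29023123 to 29023845 became one of 2070 bp at 29023087 to 29025156. On chromosome 8 a peak of 735 bp at 63320908 to 63321642 was matched by 1193 bp, and on chromosome 7 a peak of 739 bp at 127268190 to 127268928 by 1722 bp. These stand for a wider pattern. Eligible pairs were divided into quintiles by the width of the wild-type peak. In the narrowest quintile (up to 1267 bp) 317 pairs were members, or 5.71% (95% interval 5.11 to 6.35%). The share was 3.92% in the next quintile, 2.90% in both of the following ones and 3.26% in the widest (95% interval 2.81 to 3.77%). Pairs extended on both sides fell more steeply over the same quintiles, from 3.37% to 0.938%. Pairs extended in the wild type rose from 0.018% to 2.25%. The wild-type width enters each of these differences, so the gradients are given as a description only.

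Chromosomes differed in how often their shared peaks were extended on one side. Chromosome 13 had the highest share, 90 of 1360 eligible pairs or 6.62% (95% interval 5.36 to 8.07%). Chromosome 15 had 81 of 1460 (5.55%), chromosome 5 had 102 of 1878 (5.43%) and chromosome 16 had 46 of 906 (5.08%). The lowest shares were on chromosome 4, with 24 of 1799 or 1.33% (95% interval 0.857 to 1.98%), and chromosome 12, with 16 of 892 or 1.79% (95% interval 1.03 to 2.90%). The interval lay above the pooled 3.74% on chromosomes 5, 13 and 15, below it on chromosomes 2, 4, 11 and 12, and included it on the other 13. After the median edge shift of each chromosome was subtracted, chromosome 13 had 3.16% (95% interval 2.30 to 4.24%) and the highest share was on chromosome 1, at 4.59%. Extensions in the wild type outnumbered those in the knockout on chromosome 4 (55 against 24), equalled them on chromosome 12 (16 of each) and were fewer on the other 18 chromosomes.

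The share of members followed the general shift of edges on each chromosome, except at its upper end. The median outward shift of an edge ran from -3 bp on chromosome 4 to 186 bp on chromosome 1. Over the 20 chromosomes, all from the same 2 libraries, Pearson's r between this shift and the share of members was 0.841 and Spearman's rho was 0.888, and r was 0.855 without chromosomes 1 and 4. The rule uses those edges, so the relation is a description. Chromosome 1 had the largest edge shift yet only 68 members among 1613 eligible pairs, or 4.22% (95% interval 3.29 to 5.31%). It had 99 pairs extended on both sides, or 6.14% (95% interval 5.02 to 7.42%). Members outnumbered pairs extended on both sides on 17 chromosomes, by factors that reached 11 on chromosome 6 (33 against 3). They did not on chromosome 1 (68 against 99), chromosome 15 (81 of each) and chromosome 16 (46 against 47). On chromosome 13 there were 90 members and 54 pairs extended on both sides.

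**Figure D4:**
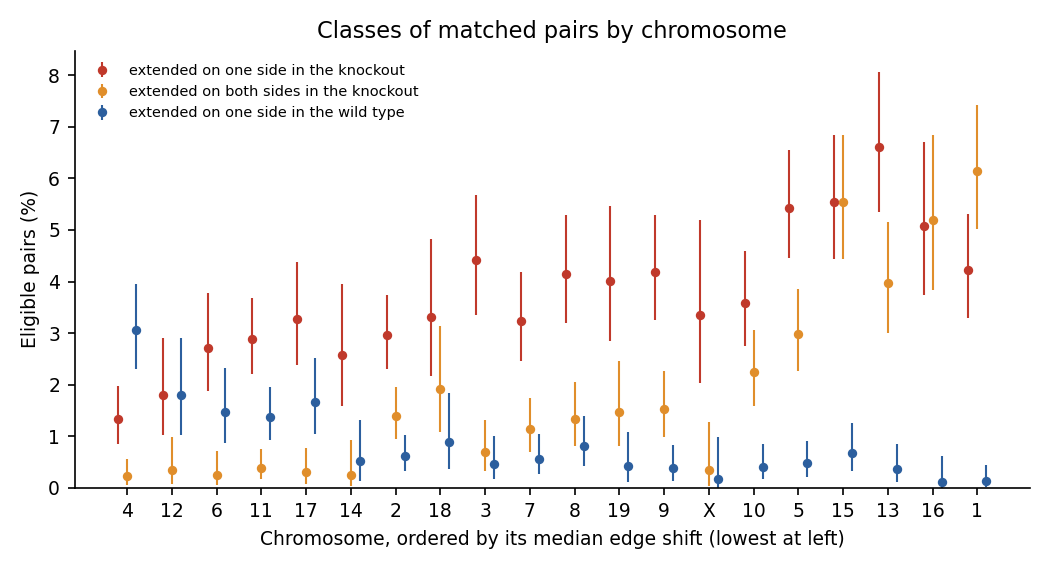
The plot by chromosome gives the share of eligible pairs in each class with exact 95% intervals, the chromosomes ordered by their median edge shift. Pairs extended on one side in the knockout (red) go from 1.33% on chromosome 4 to 6.62% on chromosome 13, and pairs extended on both sides (orange) pass them on chromosomes 16 and 1.

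Along the chromosomes the members were spread like the other pairs. With the span between the outermost peaks of each chromosome divided into 4 equal segments, by rising coordinate, they made up 3.55%, 3.70%, 3.93% and 3.75% of eligible pairs, with overlapping intervals. Crowding made no clear difference either. By quintiles of the distance to the nearest wild-type peak, members were 3.51% of the most crowded pairs (up to 2385 bp away), 4.13%, 3.75% and 3.75% of the next quintiles, and 3.57% of the most isolated pairs (29342 bp or more), and all 5 intervals overlapped. Extensions in the wild type were more frequent in the crowded quintile, at 1.41% (95% interval 1.11 to 1.75%) against 0.559% (95% interval 0.380 to 0.792%) in the isolated one.

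The extended side faced the nearer wild-type neighbour in 530 of 1037 members, or 51.1% (95% interval 48.02 to 54.2%). Median distances to the next wild-type peak were 16143 bp on the extended side (95% interval 14806 to 18211 bp) and 18249.5 bp on the held side (95% interval 16195 to 20079 bp). Pairing asks that the extension meet no second wild-type peak and asks nothing of the held side, which lowers that share. Where the held side was also free over the length of the extension, the extended side faced the nearer neighbour in 530 of 997 members, or 53.2% (95% interval 50.01 to 56.3%). When the overlap had to be 50% of both peaks, which changes the pairs, the share was 54.6% (95% interval 51.5 to 57.7%). That rule ignores smaller overlaps, so an extension may reach a second wild-type peak, which can raise the share. Both of these intervals lay above 50%, the former by a narrow margin, and the latter is not read as a lean. For pairs extended in the wild type the share was 55.5% (95% interval 48.9 to 61.9%). With the held side as free it was 58.4% (95% interval 51.7 to 64.9%), or 132 of 226 pairs in place of 132 of 238. Pairing bars no second wild-type peak on the extended side of these pairs, so here the restriction by itself raises the share. No comparison with the members is drawn from it. Extensions of members crossed a median of 4.37% of the gap to the next wild-type peak, and 42 of 1037 (4.05%) crossed 50% or more of it.

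**Figure D5:**
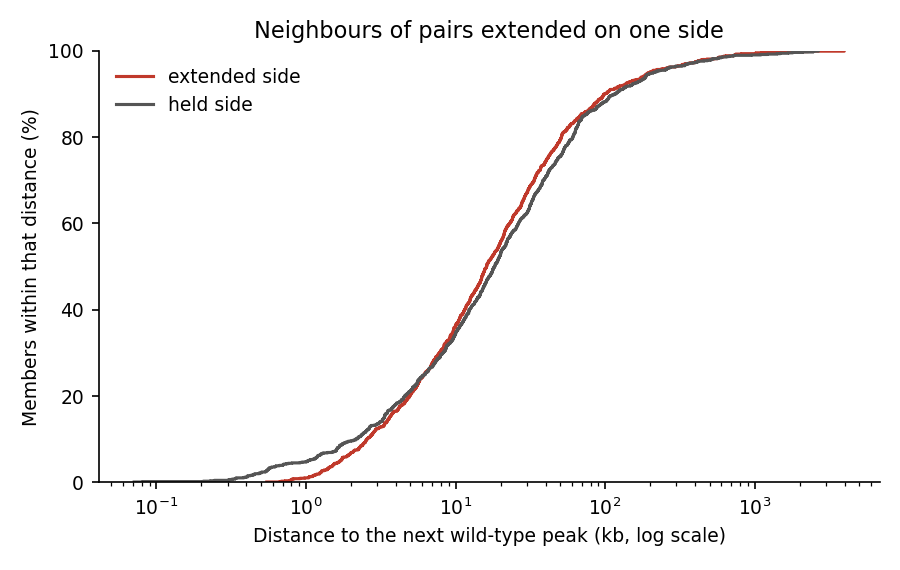
The plot of distances gives the percentage of members whose next wild-type peak lies within a distance in kb (log scale), in red for the extended side and in grey for the held side. The red line is lower at short distances (6.84% against 9.63% within 2 kb), where the pairing rule bars a second wild-type peak. Farther out it is the higher line, with 36.1% against 34.4% within 10 kb and 55.7% against 52.7% within 20 kb.

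Peaks found in the knockout alone were no more frequent beside the extension than on the held side. Such a peak lay within 10 kb of the knockout edge on the extended side of 147 members, or 14.2% (95% interval 12.1 to 16.4%), and on the held side of 154, or 14.8% (95% interval 12.7 to 17.2%). Over both sides together the share was 14.5% (95% interval 13.01 to 16.1%). It was 11.8% over all eligible pairs, and 13.3% when their chromosomes were weighted as in the members. Pairs extended on both sides had such a peak on 23.3% of sides (95% interval 20.8 to 25.9%, chromosome-weighted background 16.4%), and pairs with both edges held on 7.60% (95% interval 6.74 to 8.53%, background 9.63%). Members thus lay between these 2 classes, and their interval included the background of their chromosomes.

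The edges of neighbouring sites that faced the members were measured where the next wild-type peak was in a matched pair itself. Its facing edge lay a median of 119 bp farther out in the knockout on the extended side (95% interval 103 to 136 bp, 874 pairs) and 106 bp on the held side (95% interval 94 to 122 bp, 859 pairs). Over all eligible pairs the median was 99 bp, and 114 bp with chromosomes weighted as in the members. The facing edge had moved out by 400 bp or more in 132 of 874 pairs on the extended side, or 15.1% (95% interval 12.8 to 17.6%). It had done so in 96 of 859 on the held side, or 11.2% (95% interval 9.15 to 13.5%), beside 11.1% of all and a weighted background of 12.4%. The interval of the extended side lay above both backgrounds, that of the held side included both, and the intervals of the sides overlapped. These shares include next pairs that were members themselves, 36 on the extended side and 30 on the held side, which the rule had chosen for a long edge. Without them the median shifts were 118 bp (95% interval 102 to 134 bp) and 106 bp (95% interval 94 to 122 bp). The shares were not computed without them. For neighbours within 5 kb the medians were 166 bp (95% interval 122 to 194 bp, 172 pairs) and 106 bp (95% interval 75 to 154 bp, 179 pairs), again with overlapping intervals. The former interval lay above the medians of 99 and 114 bp, which are over neighbours at any distance. A difference between the sides was not tested.

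Members were mostly single. They occupied 964 windows of 100 kb, 895 of which held 1 member, 64 held 2 and 5 held 3. Of the 5 windows, the 3 named by order of position were on chromosomes 5 and 15. The window at chromosome 5, 107400001 to 107500000, held 3 members among 10 eligible pairs. In it, a wild-type peak at 107429883 to 107431518 was extended by 516 bp to the higher side and its neighbour at 107440716 to 107441790 by 470 bp to the lower side, so the extensions faced each other across a wild-type gap of 9197 bp. The third member there, at 107448619 to 107450285, was extended by 903 bp to the higher side. On chromosome 15 the window from 27300001 to 27400000 held 3 of 5 eligible pairs, with extensions of 1046, 1080 and 422 bp. The window from 102100001 to 102200000 held 3 of 12, with 1084, 480 and 1215 bp.

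The side of an extension showed no relation to that of the next member along the chromosome. Of 70 neighbouring members up to 50 kb apart, 36 were extended to the same side, or 51.4% (95% interval 39.2 to 63.6%), 16 towards each other and 18 away from each other. Of the 18 up to 10 kb apart, 8 pointed the same way, 6 towards each other and 4 away. Over all 1018 consecutive members of a chromosome the same side was shared by 509, or 50% (95% interval 46.9 to 53.1%). In sum of length, the members' edges moved out over 0.821 Mb, which is 7.90% of the 10.4 Mb by which edges of all matched pairs moved out.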

How the data were processed

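Libraries were single-end reads of 50 bases, per the labels' protocols. The authors deposited 1 peak list per H2A.Z library, with chromosome, start and end in bp on mm9 and no score, per the file headers and the submitters' processing notes. Those notes name the tools MACS 1.4.2, HOMER, Bowtie 0.12.8 and CASAVA 1.8.2. Not given in the sources used here: what each did, how inputs were used and the peak threshold. Pairing used scipy 1.17.1, pandas 2.3.3 and numpy 2.4.6 in Python 3.11.15, plots used matplotlib 3.10.9, and the code was tested on simulated data. Coordinates count from 1. Shares carry Clopper-Pearson intervals, medians order-statistic intervals. Distances run between facing edges.

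The members, lists and rules were chosen with earlier results of these data known. Regions named were the 5 longest extensions per side, the 3 narrowest wild-type peaks, the 3 pairs on each side of the 400 bp minimum and the 3 windows with most members, ties by position. Alternatives were other minimums and tolerances, no width limit, 50% overlap, autosomes, 5 chromosomes left out and merging within 500 bp. Those marked as added were chosen after seeing the data. No sequence or gene on mm9 was used here.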

Additional observations from a re-analysis of the deposited data

How the results depend on the processing

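Of 158 alternative values of 16 quantities, 119 stayed inside the main interval (counts within 1.5 times), 38 moved and 1 changed sign. A minimum of 300 bp gave 1724 pairs (6.21% of eligible pairs), medians of 444.5 bp for the extension and 2253 bp for the knockout width, and chromosome shares from 2.56 to 10%. At 600 bp these were 584 pairs (2.10%), 892.5 bp, 2604 bp and 0.667 to 4.19%, with 5.12 times as many extensions in the knockout as in the wild type. Changes in number and length follow from the minimum itself. A held edge within 25 bp left 547 pairs (1.97%), a ratio of 5.11 and a highest share of 3.53%, and within 100 bp 1920 pairs (6.92%) and shares of 2.56 to 11.1%. Without a width limit the ratio was 3.72. With 50% overlap of both peaks the wild-type width was 1667.5 bp and the extended side faced the nearer neighbour in 54.6%. The next wild-type peak on that side lay 14635 bp away and 17.4% had a knockout-only peak near the extension. That rule ignores smaller overlaps. An extension may then reach a second wild-type peak, and a knockout-only peak may overlap a wild-type peak below the limit. Without chromosomes 1, 4, 12, 13 and 16 the lowest share was 2.58%. Merging within 500 bp gave 4.01% of pairs, 695 bp and 2547 bp. Knockout-only peaks lay within 5 kb of 7.996% (extended side) and 8.96% (held side), and within 20 kb of 25.6% and 24.5%. Added after seeing the data, shifts less the chromosome median gave 3.16% of pairs, a ratio of 2.81, a highest share of 4.59% (chromosome 1) and facing-edge shifts of 12 bp (extended side) and -2 bp (held side). Unless stated, the cause was not tested. No paired analysis was possible because neither genotype has a second library. Edge positions depend on depth, which is unknown.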

Other observations

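Membership rests on edges compared at their deposited positions. When the median shift of that edge on its chromosome was subtracted first, an alternative added after seeing the data, 878 pairs were extended on one side in the knockout, against 313 in the opposite direction. Of the 1038 members, 112 (10.8%) were among the 878 (12.8% of those). Most of that exchange is built in, because a held edge then has to lie within 50 bp of the usual outward shift and not of 0. Chromosome 13 changed from 6.62% of eligible pairs to 3.16% (95% interval 2.30 to 4.24%), while chromosome 4 had 1.33% by either rule and chromosome 1 had 4.59% (95% interval 3.62 to 5.72%). Pairs extended on both sides numbered 244 after the subtraction and 535 before it.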
